A study of Mus musculus with 5 samples.

Results

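The genes described here are 6 that mark horizontal cells of the mouse retina, namely Onecut1, Onecut2, Onecut3, Lhx1, Prox1 and Calb1. They were chosen by symbol, each had 1 entry among the 33635 genes of the count table, and all 6 passed the filter that left 17432 genes for testing. Whole retinas came from male wild-type mice, labelled C57BL6/J, at postnatal day 42. In each mouse the right eye had been form-deprived for 2 weeks from postnatal day 28 with a diffuser goggle fixed to the head, a treatment used to induce form-deprivation myopia (FDM), and the untreated left eye was the contralateral control. Poly-A RNA was sequenced from 2 FDM retinas (FDM 1 and FDM 3) and 3 control retinas (Control 1, 2 and 3), each from its own eye. By the numbers of the count table and the study's supplement, equal numbers are the eyes of 1 mouse, so that 2 mice gave both eyes and Control 2 had no partner. The sample labels call the second FDM retina number 2 instead, so values within mouse 3 rest on the table's number. The labels give a refractive error of 0.976 and 0.2745 dioptres for the FDM eyes and of 2.4455 to 3.1505 dioptres for the control eyes.

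Horizontal cells are inhibitory interneurons of the outer retina. They receive input from photoreceptors at the photoreceptor terminals and feed back onto them, which shapes the surround of the receptive field. In development, the factors Foxn4 and Ptf1a act before Onecut1, and Onecut1, Onecut2, Prox1 and Lhx1 then set or maintain horizontal cell fate. Several of these genes stay on in the adult cell, where Calb1 encodes the calcium-binding protein calbindin, a common antibody marker of the type. The cells are rare, and Calb1 and Prox1 are also made by other retinal neurons, among them amacrine cells. In whole retina, fewer cells of a type and less RNA per cell cannot be told apart.

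The table held 40599047 to 56534931 estimated counts per library, and Control 2 was the deepest. A count of 3, taken as the floor, corresponds to 0.0526 to 0.0751 CPM (counts scaled to a common library total), far below every value of the 6 genes. Markers of neighbouring tissue differed between libraries. The summed level of 11 lens genes was 2027 CPM in FDM 3 and 3.23 to 19.8 CPM in the other libraries. That of 9 retinal pigment epithelium (RPE) genes was 191.3 CPM in Control 2, 171.3 CPM in Control 3 and 43.4 to 51.3 CPM in the others. All 9 lens genes that passed the filter were higher with FDM (median log2 fold change 5.03) and 5 of 9 RPE genes were lower (median -1.93), by the test given next. Of 17432 genes, 281 (1.61%) had an unadjusted p under 0.05 between FDM and control, the study's threshold, by edgeR's quasi-likelihood test without a term for the mouse, and 0 had a Benjamini-Hochberg adjusted p under 0.05. DESeq2 gave 172 and 3.

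None of the 6 horizontal cell genes passed that threshold. Their log2 fold changes, FDM minus control, lay between -0.12 for Onecut2 and 0.05 for Calb1. FDM and control libraries overlapped in level for all 6 genes, and across all genes tested 10.6% had groups that did not overlap. DESeq2 called none of the 6 either. The gene with the widest spread was Onecut1, whose level in the unpaired retina Control 2 stood above those of the other 4 libraries. In the 2 mice with both eyes, Onecut1 was higher in the FDM eye. Control 2 was the highest library for 3 of the 6 genes (Onecut1, Onecut2 and Prox1), as it was for 31.4% of all genes tested. Onecut1 was also lowest in Control 1, and 16.75% of all genes tested had Control 2 highest and Control 1 lowest.

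Per kilobase of merged exons, the scale on which levels of different genes can be set side by side, Prox1 and Calb1 were the highest of the 6. In control retinas Prox1 stood at 17.2 ± 2.60 CPM per kb and Calb1 at 15.2 ± 0.631 CPM per kb (SD, n = 3), and their libraries overlapped. Lhx1 at 1.83 ± 0.00947 and Onecut3 at 1.83 ± 0.154 CPM per kb came next and also overlapped. Onecut1 at 0.736 ± 0.447 CPM per kb and Onecut2 at 0.418 ± 0.0281 CPM per kb were the lowest, with Control 1 bringing Onecut1 down to 0.432 CPM per kb, inside the range of Onecut2. The order rests on annotated exon length, which for Onecut2 is 16234 bases, and the transcript ends used in the retina were not measured here.

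**Figure D1:**
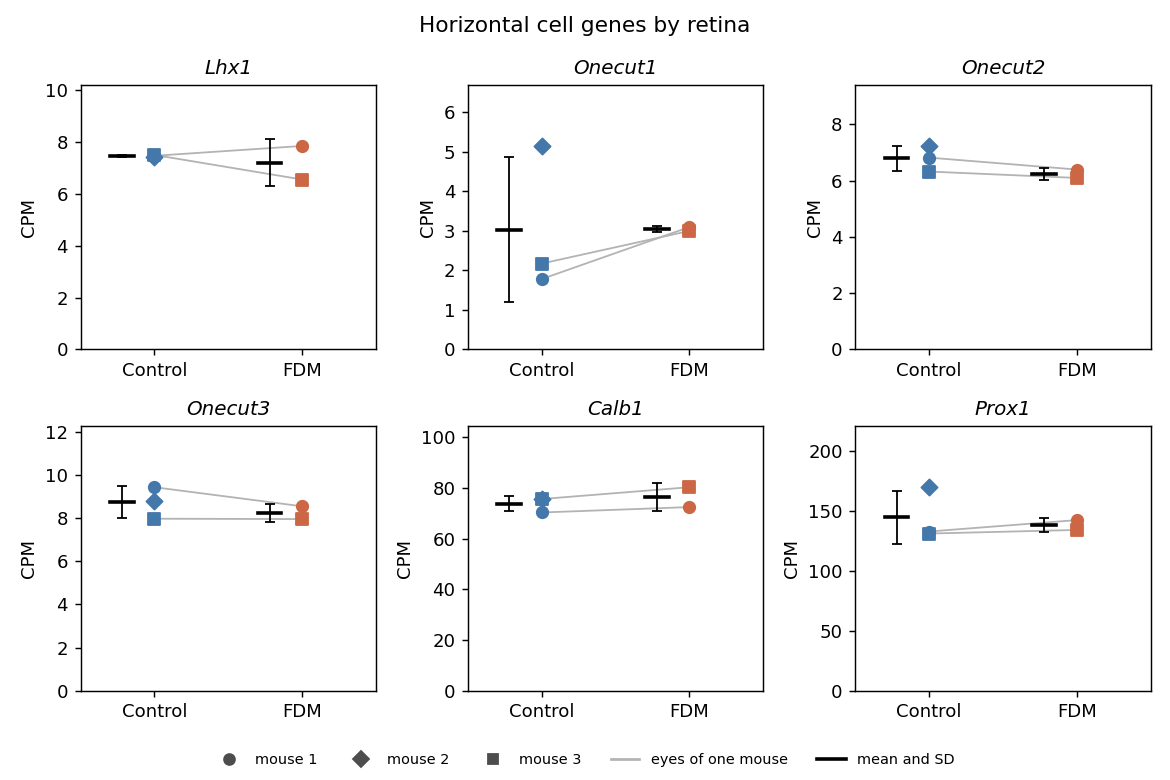
Level of each horizontal cell gene in CPM, by retina, with blue for control and orange for FDM, circles, diamonds and squares for mice 1, 2 and 3, grey lines joining the eyes of 1 mouse, and black bars for mean and SD. Onecut1 runs from 1.78 CPM in Control 1 to 5.14 CPM in Control 2, with both FDM retinas between these values, and the 3 Lhx1 controls lie almost on one another.

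Onecut1 encodes a homeodomain factor with a cut domain that acts early in horizontal cell commitment. It lies on the plus strand at chr9:74861921-74891781 (GRCm38). Part of its sequence is shared with another annotated gene, which bears on what its counts hold. The long non-coding RNA gene Gm20649 spans chr9:74848463-74891476 on the same strand, and its last exon, chr9:74889306-74891476, begins at the same base as the last exon of Onecut1 and lies within it. That exon holds the end of the Onecut1 coding sequence and most of its 3′ untranslated region. Of 4081 distinct 31-base words in the Onecut1 transcripts, 2142 (52.5%) also occurred in Gm20649. For the other horizontal cell genes, the share of words found in any other annotated gene was between 0 for Lhx1 and 2.87% for Onecut3. The junctions into the shared exon are printed to show that the 3 transcripts differ upstream of the exon and run into the same bases, with the first 20 bases of the shared exon in capitals and the last 20 bases of the preceding exon in lower case (GENCODE M21 transcripts, plus strand).
Onecut1-201: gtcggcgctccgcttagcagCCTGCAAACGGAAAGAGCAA
Onecut1-202: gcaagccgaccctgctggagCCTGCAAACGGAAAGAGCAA
Gm20649-201: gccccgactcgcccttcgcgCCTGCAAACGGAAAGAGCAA
The preceding exon ends at chr9:74863401 in Onecut1-201, at chr9:74866639 in Onecut1-202 and at chr9:74849211 in Gm20649-201. The count table held no entry for Gm20649. It held 35 of 5854 annotated long intergenic non-coding RNA genes, the class of Gm20649, beside 21703 of 22028 protein-coding genes. The missing entry therefore says nothing about the level of Gm20649. Because the sequence of the shared exon is the same in both genes, the Onecut1 counts may hold Gm20649 reads. How much of the Onecut1 counts came from such reads was not tested.

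**Figure D2:**
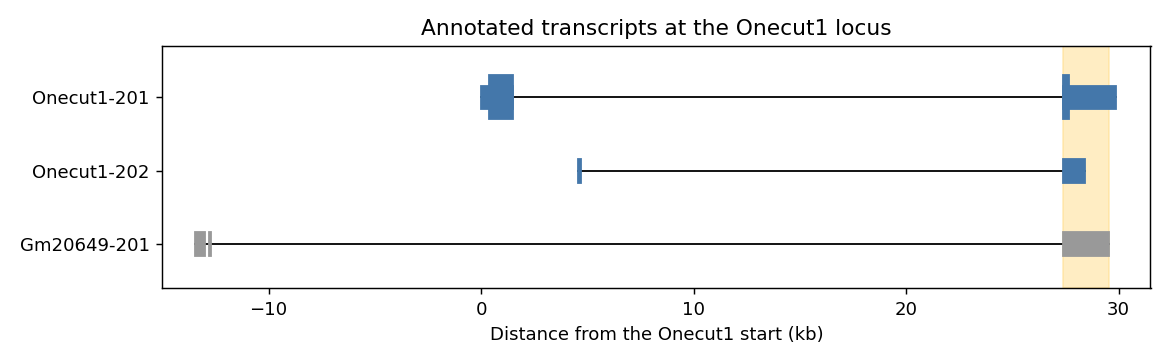
Exons (boxes, taller where coding) and introns (lines) of the annotated transcripts at the Onecut1 locus, by distance in kb from the start of Onecut1, with Onecut1 in blue, Gm20649 in grey and the shared exon shaded. The last exon of Gm20649, 2171 bases long, lies within the last exon of Onecut1-201, 2476 bases long.

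The FDM retinas held 134 and 144 Onecut1 counts, and Controls 1, 2 and 3 held 71, 293 and 103. In CPM these were 3.09 and 2.99 in the FDM retinas and 1.78, 5.14 and 2.17 in the controls. Both FDM retinas thus stood between Control 3 and Control 2. The means were 3.04 ± 0.0686 CPM (SD, n = 2) with FDM and 3.03 ± 1.84 CPM (SD, n = 3) in controls, and edgeR gave a log2 fold change of -0.0075 with a standard error of 0.42 (adjusted p = 1.0). The 95% interval of the fold ran from 0.499 to 1.98.

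The spread of Onecut1 came from the control retinas. Control 2 was 2.89-fold above Control 1, and the SD of log2 CPM over the controls, 0.81, was larger than that of 97.5% of the 4212 genes with a mean of 1 to 10 CPM. The authors' normalized counts carry a factor for each gene and library, which for Onecut1 in Control 1 was 0.85 of the library's median factor. Over 14152 genes, the 5th to 95th percentile of that ratio in Control 1 was 0.936 to 1.06. The normalized counts of Onecut1 were 136.5 and 133.7 for FDM 1 and FDM 3 and 97.1, 230.4 and 101.3 for Control 1, 2 and 3. On that scale the highest control was 2.37-fold above the lowest, with the libraries in the same order. The summed RPE level was 191.3 CPM in Control 2 and 171.3 CPM in Control 3, where Onecut1 stood at 5.14 and 2.17 CPM. The part of the RPE level and of the depth of Control 2 in this value was not tested.

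Within mice, the Onecut1 level in the FDM eye was 1.73-fold that of the control eye in mouse 1 and 1.38-fold in mouse 3. On the authors' normalized counts the log2 differences were 0.49 and 0.40. On CPM they were 0.79 and 0.46, larger in size than those of 96.3% and 90.5% of all genes tested in the same mouse. On CPM, of the 4212 genes at 1 to 10 CPM, 0.522% were higher in the FDM eye of both mice by at least the smaller of these differences. These genes were matched to Onecut1 by level only, and 97.5% of them varied less than Onecut1 over the controls. The share among genes as variable as Onecut1 was not measured. With the mouse as a block, which leaves Control 2 with no weight on the difference between eyes, edgeR gave Onecut1 a log2 fold change of 0.62 with a standard error of 0.18 (past the unadjusted threshold, adjusted p = 0.508), higher in 2 of 2 mice. Without Control 2 and without the block, the value was 0.63 with a standard error of 0.18 (edgeR, adjusted p = 0.998). Both fits used the counts without the authors' factors, and neither was run with them. Onecut1 was the only one of the 6 genes with an unadjusted p under 0.05 in either fit, against 7.23% of all genes with the block and 3.11% without Control 2. The size of the Onecut1 difference and its call therefore turned on Control 2, the sign also changed in other settings with values close to 0, and the lowest adjusted p under any setting was 0.508. Were FDM 3 matched with Control 2, as the number in its sample label would have it, the log2 difference of that pair would be -0.78, and with those numbers as a block the value was -0.05, short of the threshold.

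**Figure D3:**
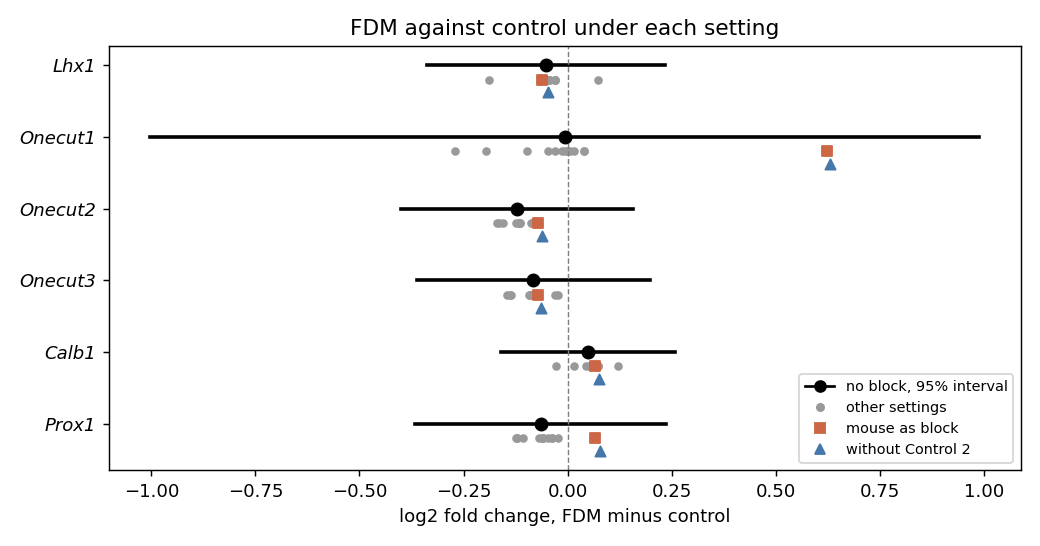
Log2 fold change of each gene, FDM minus control, from edgeR without a block with its 95% interval (black), with the mouse as a block (orange squares), without Control 2 (blue triangles) and under the other settings (grey). Onecut1 has the widest interval and moves from -0.0075 to 0.62 with the block and to 0.63 without Control 2, while the other 5 genes stay between -0.19 and 0.12 under every setting drawn.

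Onecut2 and Onecut3 are paralogs of Onecut1 with the same pair of DNA-binding domains. Onecut2 stood at 6.39 and 6.09 CPM in FDM 1 and FDM 3 and at 6.81, 7.23 and 6.32 CPM in Control 1, 2 and 3. The lowest control lay between both FDM retinas, so the groups overlapped. The fold change was -0.12 on the log2 scale with a standard error of 0.12 (edgeR, adjusted p = 1.0), and the 95% interval of the fold was 0.758 to 1.12. Onecut2 was lower in the FDM eye of both mice, with log2 differences of -0.09 and -0.05, as were 30.4% of all genes tested.

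Onecut3 lies at chr10:80494835-80517276 on the plus strand. The small annotated gene 2610034O05Rik lies within its span on the same strand. The Onecut3 level was 8.56 and 7.96 CPM in FDM 1 and FDM 3 and 9.44, 8.82 and 7.98 CPM in Control 1, 2 and 3. FDM 1 lay among the controls and FDM 3 just under Control 3. The log2 fold change was -0.08 with a standard error of 0.12 (edgeR, adjusted p = 1.0; 95% interval of the fold 0.778 to 1.15). The eyes of mouse 3 had nearly the same Onecut3 level, with a fold of 0.998, and in mouse 1 the fold was 0.906. The sequence of the 3 paralogs overlaps little at the length of a short read. Onecut1 and Onecut3 shared 20 words of 31 bases, Onecut2 and Onecut3 shared 19, and Onecut1 and Onecut2 shared none. The longest run identical between Onecut1 and Onecut3, 50 bases within the coding part of Onecut1 at chr9:74863341-74863390, is printed because a single read of that length within it would match both.
Onecut1 and Onecut3: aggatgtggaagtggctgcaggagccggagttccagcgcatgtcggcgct

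Lhx1 encodes a LIM-homeodomain factor needed for horizontal cells to take up their place in the retina. It lies on the minus strand at chr11:84518284-84525535, and none of its words of 31 bases occurred in another annotated gene. The level was 7.84 CPM in FDM 1 and 6.55 CPM in FDM 3, and 7.46, 7.42 and 7.50 CPM in the controls. FDM 1 was thus the highest and FDM 3 the lowest of the 5 libraries. The log2 fold change was -0.05 with a standard error of 0.12 (edgeR, adjusted p = 1.0), with a 95% interval of the fold of 0.791 to 1.18. The mice differed in direction, with a fold of 1.05 in mouse 1 and 0.874 in mouse 3. The SD of log2 CPM over the controls was 0.0077, below the 0.0836 that counting error alone gives for the control with fewest counts.

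Prox1 encodes a homeodomain factor of horizontal, amacrine and bipolar cells that is also made in lens fibres and lymphatic endothelium. It lies at chr1:190118035-190170714 on the minus strand. The antisense genes Prox1os and Gm28172 overlap it on the other strand, and of 8389 Prox1 words of 31 bases 103 (1.23%) also occurred in Prox1os, so that part of its reads cannot be told apart with this kit. The level was 142.1 and 133.9 CPM in FDM 1 and FDM 3 and 132.6, 169.5 and 130.9 CPM in Control 1, 2 and 3. As for Onecut1, both FDM retinas stood between Control 2 and the other controls. The log2 fold change was -0.07 with a standard error of 0.13 (edgeR, adjusted p = 1.0; 95% interval of the fold 0.776 to 1.18). Within mice, the FDM eye was higher by 0.10 and 0.03 in log2 CPM, and with the mouse as a block the change was 0.07 (edgeR, adjusted p = 0.789). The summed lens level was 3.30 CPM in FDM 1 and 2027 CPM in FDM 3, where Prox1 stood at the 142.1 and 133.9 CPM given above. The summed level of 5 endothelial genes ran from 83.8 to 91.3 CPM over all libraries. The part of lens and endothelial RNA in the Prox1 level was not tested.

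Calb1 lies at chr4:15881264-15908064 on the plus strand. Its level was 72.5 and 80.3 CPM in FDM 1 and FDM 3 and 70.3, 75.6 and 75.6 CPM in Control 1, 2 and 3. FDM 1 lay between the controls and FDM 3 was the highest library. The log2 fold change was 0.05 with a standard error of 0.09 (edgeR, adjusted p = 1.0), and the 95% interval of the fold, 0.895 to 1.20, was the narrowest of the 6 genes. Calb1 was higher in the FDM eye of both mice, with folds of 1.03 and 1.06. In all, 3 of the 6 genes (Onecut1, Prox1 and Calb1) were higher in the FDM eye of both mice and 2 (Onecut2 and Onecut3) lower, beside 24.6% and 30.4% of all genes. Onecut3 counts as lower in mouse 3 on a log2 difference of -0.0032, which was 0.0113 on the authors' normalized counts, and on that scale Onecut2 alone was lower in both mice.

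Other genes known from horizontal cell development or wiring gave 0 calls. Of 16 listed, 14 passed the filter, and their median log2 fold change was 0.003, beside -0.013 over all genes tested. With the mouse as a block, 0 of 14 had an unadjusted p under 0.05 as well. Over all genes tested the shares were 1.61% without and 7.23% with the block, so that 0 calls among 14 genes is near the background. The early factors Ptf1a and Foxn4 were nearly silent at this age, with 0 to 4 counts in every library, and did not pass the filter. Gja10, which encodes the connexin that couples horizontal cells to one another, had the lowest fold change of the list at -0.22 on the log2 scale and did not pass, with 2.81 and 2.68 CPM in FDM 1 and FDM 3 and 3.21, 3.65 and 2.74 CPM in the controls. Tfap2b, a factor of horizontal and amacrine cells, had the highest at 0.09, with 208.8 and 207.1 CPM in FDM 1 and FDM 3 and 201.9, 202.6 and 181.9 CPM in the controls. The neurofilament gene Nefl, also made by ganglion cells, was the most abundant at 425.6 to 546.9 CPM. Summed over all 16, the level was 1451 and 1526 CPM with FDM and 1414 to 1539 CPM in controls.

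**Figure D4:**
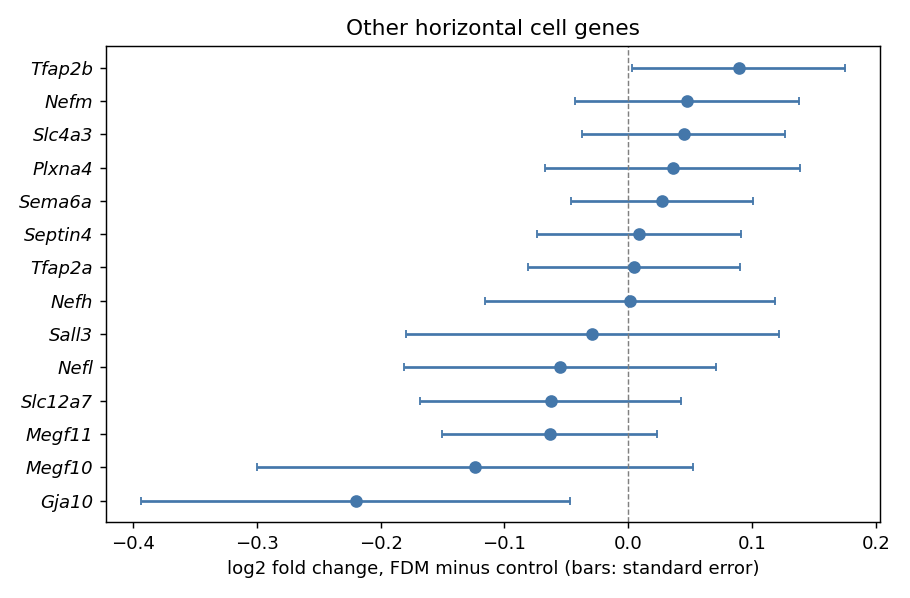
Log2 fold change, FDM minus control, with its standard error, for the 14 other horizontal cell genes tested by edgeR without a block. The values run from -0.22 for Gja10 to 0.09 for Tfap2b, and none had an unadjusted p under 0.05.

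Relatives of the 6 genes in their protein families included 16 genes that passed the filter, of 20 listed. The LIM-homeodomain gene Lhx5 was higher with FDM past the unadjusted threshold, by 0.95 on the log2 scale with a standard error of 0.38 (edgeR, adjusted p = 1.0), on 12 and 15 counts with FDM and 6 to 10 in controls. Lhx6 was lower past the same threshold, at -0.74 on the log2 scale with a standard error of 0.31 (edgeR, adjusted p = 1.0), on 13 and 21 counts with FDM and 25 to 34 in controls. With the mouse as a block, Lhx5 and Lhx6 missed the threshold. The other 14 did not pass without the block, and the median over the 16 was 0.031. Calb2, which encodes calretinin, the nearest relative of calbindin, stood at 259.0 and 311.2 CPM in FDM 1 and FDM 3 and at 296.9, 334.0 and 395.2 CPM in the controls. With the mouse as a block Calb2 was at -0.27 (edgeR, adjusted p = 0.170), and the relatives past an unadjusted p of 0.05 were then Calb2, Pvalb (-0.34) and Lhx9 (0.24). These are 2 of 16 relatives without the block and 3 of 16 with it, beside 1.61% and 7.23% of all genes.

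None of 10 ganglion cell, 8 bipolar cell, 6 rod, 6 cone, 5 Müller cell or 5 endothelial genes had an unadjusted p under 0.05 by edgeR without the block. Of 11 amacrine cell genes 1 did, the neuropeptide gene Vip, at -0.72 on the log2 scale. With the mouse as a block, 1 ganglion cell, 2 rod, 2 Müller cell and 1 endothelial gene also had an unadjusted p under 0.05, beside 7.23% of all genes in that fit and 1.61% without the block. The summed amacrine level was 755.7 to 778.6 CPM over all libraries, that is, nearly even, while the 6 horizontal cell genes summed to 240.4 and 237.8 CPM with FDM and 228.4, 273.7 and 230.5 CPM in Control 1, 2 and 3.

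For each of the 6 genes, the genes with the most similar profile over the 5 libraries were found by the root mean square difference of centred log2 CPM. Onecut1 was closest to Zfp966 at 0.0797, Gm47102 at 0.0998 and Gm15443 at 0.111, beside its own root mean square deviation of 0.519. Gm47102 stood at 14.2 and 13.5 CPM with FDM and at 7.94, 24.4 and 8.44 CPM in Control 1, 2 and 3, the same order of controls as seen for Onecut1. Prox1 was closest to Csnk1g1 at 0.00679 and Calb1 to Omg at 0.00578. Lhx1 was closest to Or10ag58 at 0.0239, Onecut2 to Mplkip at 0.0200 and Onecut3 to Cdc45 at 0.0205. These profiles rest on 5 libraries each and were not tested.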

How the data were processed

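Poly-A RNA of 5 retinas was sequenced in pairs of short reads with a kit that does not mark strand. Per the study's methods, the authors trimmed reads with Trimmomatic 0.39, estimated transcript abundance with Salmon 1.10.1 against GRCm38 and summed it per gene in R 4.3.1. The authors deposited estimated counts per gene as whole numbers and a second table of DESeq2-normalized counts, a signal scaled by a factor for each gene and library. The authors dropped another FDM library because of duplicated reads. In each library a gene's count was divided by the library's total, scaled by its TMM normalization factor, to give CPM. Genes that exceeded 10 counts in 2 or more libraries were tested with edgeR 4.0.16 (R 4.3.3) by the quasi-likelihood test with TMM normalization, with Benjamini-Hochberg adjustment over all genes tested. DESeq2 1.42.0 and limma 3.58.1 were alternatives. The script was tested on simulated data. Deviations from the group means over all genes correlated at 0.229 between FDM 1 and Control 1 and at 0.088 between FDM 3 and Control 3, beside 0.151 between FDM 3 and Control 2. With 2 FDM libraries, the deviations of FDM 1 and FDM 3 are exact opposites, so these values cannot check the pair of FDM 3 apart from FDM 1. The pairing was taken from the mouse numbers, not from these values. Gene positions, exon lengths and 31-base words came from GENCODE M21 (GRCm38), which matched 33585 of 33635 identifiers and is not the authors' own release. Intervals and floors cover counting error only or the spread between these libraries, and each group's retinas came from separate mice. The genes named were the 6 horizontal cell genes, members of the other lists with an unadjusted p under 0.05 or among the most abundant, overlapping annotated genes and the nearest profiles. Gja10, Calb2, Pvalb and Lhx9 were added after their values were seen, as were Tfap2b and Gm47102 as examples. The horizontal cell genes and the lists were chosen with earlier results of these data known.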

Additional observations from a re-analysis of the deposited data

How the results depend on the processing

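Under 14 alternatives for each of the 6 genes, 74 of 84 log2 fold changes kept their direction and their side of the unadjusted threshold and 10 changed sign. For Onecut1 the value was 0.0056 by DESeq2, 0.0389 and 0.0399 by limma on normalized counts plus 1 and plus 0.1, 0.62 with the mouse as a replicate block, 0.63 without Control 2 and 0.0162 without FDM 3. Prox1 stood at 0.0662 with the replicate block by mouse and at 0.0774 without Control 2. Without FDM 3, Lhx1 stood at 0.072 and Calb1 at -0.0281. The number of the 6 genes past the unadjusted threshold was 1 with the block and 1 without Control 2, in both fits Onecut1, and the block changed no other call among the 6. Leaving out 1 library at a time, the fold changes ran from -0.19 to 0.07 for Lhx1, from -0.27 to 0.63 for Onecut1, from -0.16 to -0.06 for Onecut2, from -0.14 to -0.02 for Onecut3, from -0.0281 to 0.12 for Calb1 and from -0.13 to 0.08 for Prox1, the number of the 6 called from 0 to 1, all genes called from 146 to 946 at the unadjusted threshold and from 0 to 16 at the adjusted one. All genes called at the unadjusted threshold, 281 as reported, came to 172 by DESeq2, 498 without a count filter, 182 with a filter of 1 CPM, 1261 with the replicate block by mouse and 439 with a block by the sample labels' numbers. At the adjusted threshold they came to 3, 54 and 128 by DESeq2, by the mouse block and by the labels' block. Of 24 alternative values of the difference between eyes, 8 moved by more than the gene's own SD of log2 CPM over the controls. That SD was 0.0077 for Lhx1 and 0.81 for Onecut1, so the same shift can count for one gene and not another. Those of mouse 1 with eyes matched by the labels' numbers could not move, because that pair of eyes is the same in both numberings. In mouse 3 under the labels' numbers, only Calb1 did not move. On normalized counts, Lhx1 stood at 0.0561 in mouse 1 and -0.0571 in mouse 3 and Calb1 at 0.0135 in mouse 3. On the same scale and within that SD, Onecut1 went from 0.79 to 0.49 in mouse 1 and Onecut3 from -0.0032 to 0.0113 in mouse 3. With FDM 3 matched to Control 2, Lhx1 stood at -0.18, Onecut1 at -0.78, Onecut2 at -0.25, Onecut3 at -0.15 and Prox1 at -0.34. The cause of these changes was not tested. With 2 FDM and 3 control retinas, the intervals given for each gene are wide, that of Onecut1 above all.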
